A study of Arabidopsis thaliana with 42 samples.

Results

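GH3.1, GH3.3, WES1 (also called GH3.5), IAA29 and LBD29 are auxin response genes of Arabidopsis thaliana. They were chosen as the genes whose probe set (the group of probes that reads out a transcript on the array) carries exactly that gene symbol in the platform annotation. Each had 1 such probe set, and they are 5 of 13356 genes with a probe set naming a single gene, among 22810 probe sets on the array. By locus, GH3.1 is AT2G14960, GH3.3 is AT2G23170, WES1 is AT4G27260, IAA29 is AT4G32280 and LBD29 is AT3G58190.

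Auxin acts by bringing Aux/IAA repressor proteins to TIR1/AFB receptors, which mark the repressors for breakdown and so free the ARF transcription factors to activate their targets. Among the best known targets are GH3 genes, whose enzymes join auxin to amino acids and thereby lower the pool of free hormone, Aux/IAA genes, which restore repression, and LBD genes of lateral root formation. Ethylene, whose direct precursor is made by ACC synthase (ACS), is known to act on auxin synthesis and transport in Arabidopsis seedlings.

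The series measured RNA of seedlings grown in the light for 10 days, on 42 one-colour Affymetrix arrays in 14 groups of 3 arrays that the titles call biological replicates. A set of 27 arrays held 8 single mutant lines, each named for an ACS gene, and control seedlings labelled Col. These lines were acs9B and acs6E, acs5D and acs5C, acs4A, acs2C and acs2B, and acs1A. A set of 15 arrays held 4 lines labelled as higher order mutants (hepta, hexa, penta and miR) and other Col seedlings. The labels give neither the alleles nor the genes mutated in penta, hexa, hepta and miR, and each line stands for its genotype alone. All groups shared the same medium with sucrose, a cold treatment of 2 days at 4 C before growth, 25 C and 16 h of light per day, and no hormone treatment is named. Values are log2 expression levels, and since array medians lay at 6.77 to 6.83 in the single set and at 6.24 to 6.31 in the higher order set, levels are never compared across the sets.

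Leaf and root transcripts were both present. The photosynthesis genes RCA, PRK and SBPASE (3 of 8 listed shoot markers had a probe set) lay at percentile 99.4 or above among all probe sets in both sets, and the root glucosidase PYK10 at percentile 99.8. EXPA7, an expansin of root hairs and the other measured root marker of 10 listed, lay near the median of the array. The summed level of the shoot markers was 14.96 to 15.20 on the arrays of the single lines against 14.99 to 15.07 on their Col arrays, and 14.52 to 14.65 on the higher order lines against 14.58 to 14.62 on Col. That of the root markers was 13.38 to 13.61 on the single lines against 13.36 to 13.52 on Col, and 13.02 to 13.29 on the higher order lines against 12.92 to 13.12 on Col. PYK10, far brighter than EXPA7, made up nearly all of the root sum. In RNA from seedlings, a change in the number of expressing cells and a change in RNA per cell cannot be told apart.

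Controls added to the RNA during labelling or hybridization set the Col arrays of the single set apart from every mutant array. Labelling control thr was at 7.41 to 8.43 in the lines and 6.81 to 6.97 in Col, and hybridization control cre was at 12.55 to 12.91 in the lines and 13.11 to 13.29 in Col. For single lines, genotype and sample handling cannot be told apart wherever Col is the partner, so pairs of lines are given as well. The hybridization control bioC also fell into levels among the lines. It was high, at 8.95 to 9.30, in all arrays of acs9B, acs6E and acs5D and in acs2B replicate 2. It was low, at 7.07 to 7.50, in the other acs2B arrays and in all arrays of acs5C, acs4A, acs2C and acs1A, while Col lay at 8.22 to 8.51. In pairs of lines at different bioC levels, genotype and sample handling cannot be told apart either.

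Calls stood before a high background in the single set. A difference is called, or passes, when its limma p, adjusted by Benjamini-Hochberg over all 22746 probe sets tested, is below 0.05. Statements that arrays of groups did or did not overlap are descriptions without a test. The share of all probe sets whose arrays do not overlap was not computed. Against Col, limma called 28.8% of all probe sets in acs6E, 26.6% in acs2C, 25.6% in acs9B and 22.7% in acs2B. The share was 21.4% in acs1A, 20.3% in acs4A, 19.2% in acs5C and 17.6% in acs5D. Of the 5 genes, 3 were called in acs2B, all lower (12.5% of all probe sets were called lower there), and 2 in acs6E, both lower (15.5%). A further 2 were called in acs9B, both higher (10.9%), and 1 in acs2C, higher (12.1%). None was called in acs1A, acs4A, acs5C and acs5D, where IAA29 in acs1A and WES1 and LBD29 in acs5C were at an unadjusted p under 0.05. The share of all probe sets at an unadjusted p under 0.05 was not computed, here or below. It is at least the called share, so counts at that level are descriptions only.

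Between single lines the background ranged more widely, and pairs of acs6E had much of its upper end. Against acs6E, limma called 29.9% of all probe sets for acs9B, 25.6% for acs2C, 17.5% for acs1A, 16.4% for acs4A, 11.9% for acs5C, 11.1% for acs5D and 1.24% for acs2B. Against acs2B it called 26% for acs9B, 21.4% for acs2C, 10.3% for acs1A, 8.82% for acs4A, 6.56% for acs5D and 4.25% for acs5C. Of the remaining pairs with acs9B, acs5C had 19.1%, acs1A 11%, acs4A 7.69%, acs5D 7.04% and acs2C 0.703%. Pairs among the other 5 lines were at most 8.37% (acs2C and acs5C). With acs1A the share was 5.54% for acs4A, 4.35% for acs2C, 3.04% for acs5D and 1.9% for acs5C, and with acs4A 4.17% for acs5C, 1.32% for acs5D and 0.928% for acs2C. For acs5D it was 2.57% with acs2C and 2.29% with acs5C.

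WES1, an enzyme that conjugates auxin and salicylic acid, was the brightest of the 5 genes, and it was low in acs2B and acs6E. Its log2 level was 8.34, 8.29 and 8.33 in acs6E and 8.25, 8.59 and 8.54 in acs2B, against 9.14, 8.88 and 8.94 in Col. All 6 arrays of these lines lay below all Col arrays. The log2 difference from Col was -0.67 ± 0.14 in acs6E (SE, limma adjusted p = 0.0010) and -0.53 ± 0.14 in acs2B (limma adjusted p = 0.0091). The acs2B call was lost without acs2B replicate 1 (limma adjusted p = 0.065). PRK, 1 of the 3 shoot markers, was higher than Col in the same lines, by 0.25 ± 0.06 in acs6E and 0.20 ± 0.06 in acs2B (limma adjusted p = 0.0048 and 0.025), and in acs1A (0.21 ± 0.06, 0.021), where WES1 was not called. RCA, the brightest of the shoot markers, differed from Col by -0.01 in acs6E, 0.002 in acs2B and 0.02 in acs1A and was not called. SBPASE was higher by 0.10, 0.11 and 0.19 in the same order and was called only in acs1A (limma adjusted p = 0.024). The summed shoot markers of these lines lay above all Col arrays, at 15.09 to 15.13 in acs6E, 15.11 to 15.12 in acs2B and 15.11 to 15.20 in acs1A against 14.99 to 15.07 in Col. The part of the shoot markers in these results was not tested.

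In the other 6 single lines WES1 differed from Col by 0.04 (acs4A) to 0.31 (acs5C) and passed in none. The acs5C arrays lay above all Col arrays, with a 95% interval of 0.01 to 0.60 (limma adjusted p = 0.14). Among the acs4A arrays WES1 was at 9.52 in replicate 1 and at 8.82 and 8.75 in the others, and without replicate 1 the difference from Col was -0.21 (limma adjusted p = 0.22). In the order of group means, acs5C, acs9B, acs1A, acs2C, acs5D, acs4A, Col, acs2B and acs6E, the step from Col down to acs2B was the only 1 between neighbours that passed.

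Comparisons between lines gave the same split for WES1. Of 28 pairs of single lines 12 passed, and these were all 12 pairs of acs2B or acs6E with another of the 6 lines; the difference of acs2B minus acs6E did not pass (0.14 ± 0.14, limma adjusted p = 0.80). Within the high bioC level, acs6E differed from acs9B by -0.90 ± 0.14 (limma adjusted p = 4.4e-05), and acs5D from acs6E by 0.75 ± 0.14 (limma adjusted p = 0.0011). Within the low bioC level, acs2B replicates 1 and 3 differed from acs2C by -0.69 ± 0.16 (limma adjusted p = 0.0044). The calls of acs6E against acs1A, acs2C, acs5C, acs5D and acs9B, and of acs2B against acs1A, acs2C, acs5C and acs9B, passed under every alternative run. That of acs2B against acs4A was lost without acs4A replicate 1 (-0.32, limma adjusted p = 0.13) or acs2B replicate 1 (0.088), and on the 6 arrays alone (0.24). That of acs2B against acs5D was lost without acs2B replicate 1 (0.076) or acs5D replicate 2 (0.052), and with the bioC term (0.34). For acs4A against acs6E the difference of 0.71 was 0.46 without acs4A replicate 1 and still passed (limma adjusted p = 0.0096), but the call was lost on the 6 arrays alone (0.075) and with the bioC level as a term in a fit without Col (0.063). Conversely, acs4A passed against acs1A, acs5C and acs9B only without its replicate 1 (limma adjusted p = 0.023, 0.0067 and 0.0079).

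**Figure D1:**
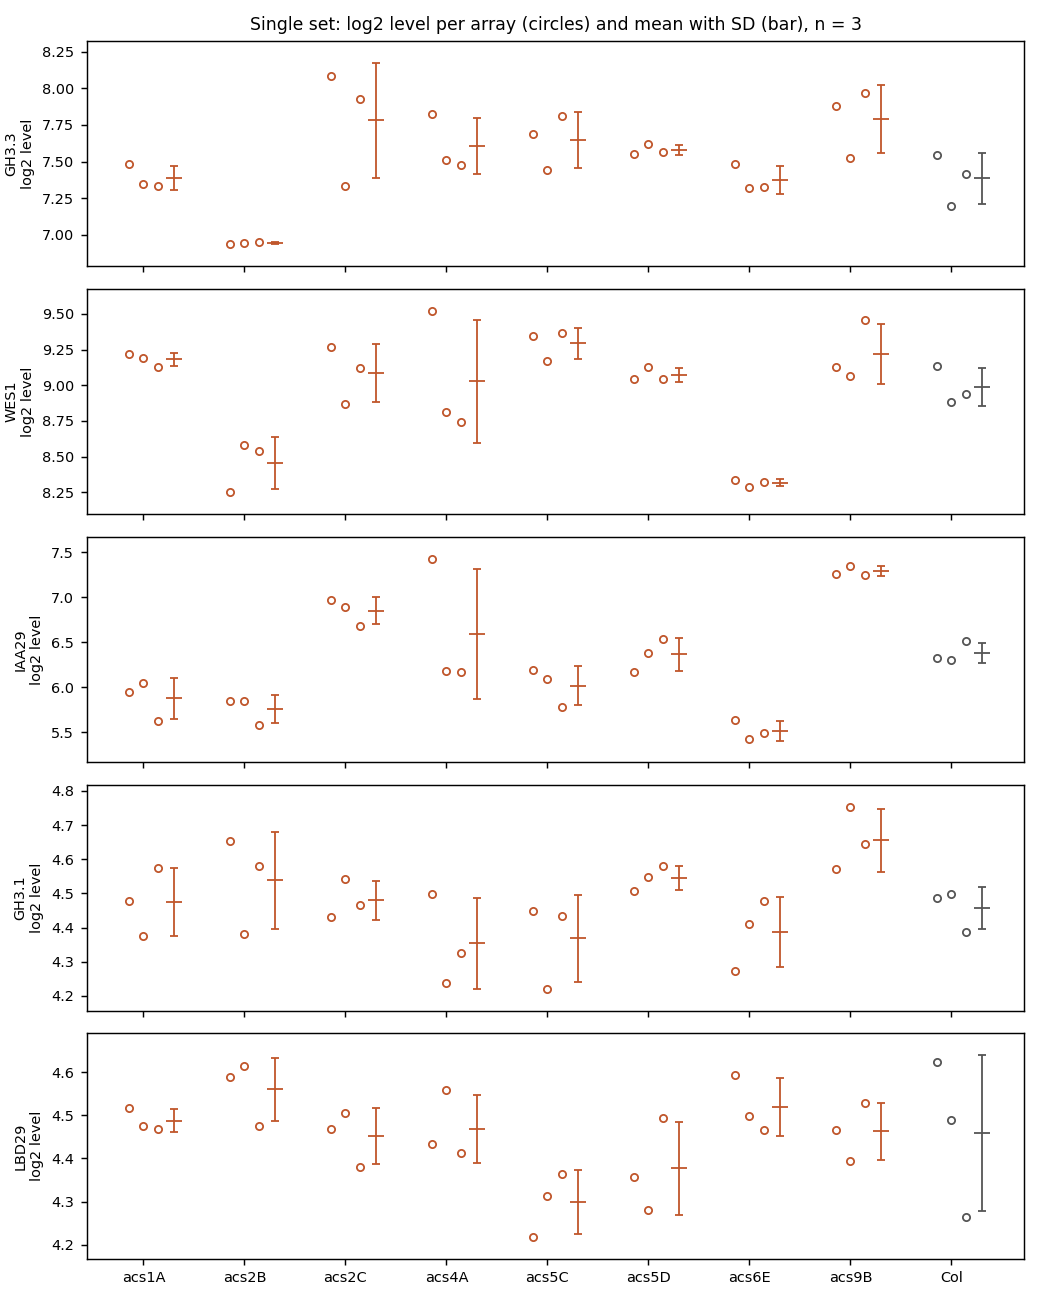
Log2 expression level of GH3.3, WES1, IAA29, GH3.1 and LBD29 (1 panel each, vertical axis) in the 8 single mutant lines and Col (horizontal axis). Circles are the 3 arrays of a group and the bar beside them is the mean with the SD; IAA29 arrays reach from 5.42 in acs6E to 7.43 in acs4A replicate 1, while all GH3.1 and LBD29 arrays lie between 4.22 and 4.75.

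GH3.3, an auxin-conjugating enzyme whose transcript is known to be strongly induced by auxin, was low in acs2B. Its level was 6.94, 6.94 and 6.95 there, against 7.55, 7.20 and 7.41 in Col, and the arrays did not overlap. The difference from Col was -0.44 ± 0.14 (SE, limma adjusted p = 0.026), a call lost without acs2B replicate 1, 2 or 3 (0.066, 0.060 and 0.061) or Col replicate 1 or 3 (0.11 and 0.064).

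GH3.3 also passed against Col in acs9B (0.41 ± 0.14, limma adjusted p = 0.038) and in acs2C (0.39 ± 0.14, limma adjusted p = 0.042), where arrays overlapped those of Col. Its levels were 7.88, 7.53 and 7.97 in acs9B and 8.08, 7.33 and 7.92 in acs2C. The acs9B call was lost without acs9B replicate 1 or 3 (0.12 and 0.17) or Col replicate 2 or 3 (0.16 and 0.067), and on the 6 arrays alone (0.070). The summed root markers of acs9B lay above all Col arrays (13.53 to 13.61 in acs9B and 13.36 to 13.52 in Col), as did the summed shoot markers of acs2B, and their part was not tested. Neither root marker was itself called in acs9B (PYK10 0.10 and EXPA7 0.31, limma adjusted p = 0.22 and 0.15). The acs2C call was lost without acs2C replicate 1 or 3 (0.26 and 0.16) or Col replicate 2 or 3 (0.18 and 0.073), and on the 6 arrays alone (0.17). The acs2C difference was 0.24 without its replicate 1 and 0.62 without its replicate 2.

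In acs6E, where WES1 was low, GH3.3 levels of 7.48, 7.32 and 7.32 differed from Col by -0.01 ± 0.14 (95% interval -0.30 to 0.28). The 28 pairs held 8 calls for GH3.3. Of these, 6 were pairs of acs2B, which was the lower line in each, most against acs9B (-0.85 ± 0.14, limma adjusted p = 0.00011) and acs2C (-0.84 ± 0.14, limma adjusted p = 0.00023), and both passed under every alternative run. The direct difference between acs2B and acs6E, -0.43 ± 0.14, did not pass (limma adjusted p = 0.16), but did on the 6 arrays alone (0.010). The call between acs6E and acs9B (-0.42) was lost without acs6E replicate 2 or 3 (0.087 each) or acs9B replicate 1 or 3 (0.096 and 0.14). That of acs2C against acs6E (0.40) was 0.25 without acs2C replicate 1 (limma adjusted p = 0.25) and 0.63 without acs2C replicate 2, and was also lost without acs2C replicate 3 (0.14) or acs6E replicate 2 or 3 (0.11 each), on the 6 arrays alone (0.088) and with the bioC term (0.38). That of acs1A against acs2B (0.45, limma adjusted p = 0.046) was lost without any 1 of their arrays (0.074 to 0.15) and with the bioC term (0.090). That of acs2B against acs4A was lost on the 6 arrays alone (0.051) and that against acs5D with the bioC term (0.17). Of the pairs not called, acs1A against acs2C passed without acs2C replicate 2 (0.0087). The pair acs1A against acs9B passed without acs9B replicate 2 (0.028), on the 6 arrays alone (0.033) and with the replicate number as a block (0.024). In the order of means, acs9B, acs2C, acs5C, acs4A, acs5D, acs1A, Col, acs6E and acs2B, no neighbours passed, though the arrays of acs2B did not overlap those of acs6E.

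IAA29 encodes an Aux/IAA repressor whose transcript is known to rise in shade through PIF transcription factors. It varied most of the 5 genes in the single set, and it stood both above and below Col. Its log2 level was 7.26, 7.35 and 7.25 in acs9B against 6.33, 6.30 and 6.51 in Col, a difference of 0.91 ± 0.21 or 1.87-fold (SE, limma adjusted p = 0.0023). In acs6E it was 5.63, 5.42 and 5.49, a difference from Col of -0.87 ± 0.21 (limma adjusted p = 0.0026). Every acs9B array lay above, and every acs6E array below, all Col arrays, and both calls passed under every alternative run.

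In acs2B IAA29 was at 5.84, 5.85 and 5.58, below all Col arrays (-0.62 ± 0.21, limma adjusted p = 0.031). This call was lost without acs2B replicate 1 (0.054) or 3 (0.12) and without Col replicate 1 (0.055) or 3 (0.096). In acs1A (-0.51), acs5C (-0.36) and acs2C (0.47) the arrays did not overlap those of Col, and the differences did not pass (limma adjusted p = 0.083, 0.23 and 0.096). Fitted on the 6 arrays of the comparison alone, those of acs1A and acs2C passed (limma adjusted p = 0.027 and 0.014). Here too PRK and the summed shoot markers were higher in acs6E, acs2B and acs1A, while RCA was called in none of them, as given for WES1. In acs9B the summed root markers lay above all Col arrays, at 13.53 to 13.61 against 13.36 to 13.52 in Col, and their part was not tested. Neither root marker was itself called there, as given for GH3.3. The acs5D line differed from Col by -0.02, with a 95% interval of -0.44 to 0.41.

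The array acs4A replicate 1 had an IAA29 level of 7.43, the highest of the single set, while replicates 2 and 3 were at 6.18 and 6.17. The acs4A mean thus differed from Col by 0.21 with all arrays and by -0.21 without replicate 1, and passed in neither case (limma adjusted p = 0.52 and 0.29).

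IAA29 had the most differences between single lines of the 5 genes, 14 of 28 pairs. The largest was between acs6E and acs9B, both at the high bioC level: acs6E minus acs9B was -1.77 ± 0.21 on the log2 scale, so that the level in acs9B was 3.41-fold that in acs6E (limma adjusted p = 1.1e-06). The marker sums also differed without overlap between these lines. For shoot markers they were 15.09 to 15.13 in acs6E and 14.96 to 15.01 in acs9B. For root markers they were 13.42 to 13.44 in acs6E and 13.53 to 13.61 in acs9B, which reflects PYK10 (means 13.42 and 13.55). EXPA7 went the other way, with means of 7.03 in acs6E and 6.96 in acs9B. The part of the markers was not tested. The third line of the high bioC level, acs5D, lay between acs6E and acs9B in IAA29, 0.85 ± 0.21 above acs6E and -0.92 ± 0.21 from acs9B (limma adjusted p = 0.0080 and 0.0093). Within the low level acs1A differed from acs2C by -0.97 ± 0.21 (limma adjusted p = 0.0070) and acs2B replicates 1 and 3 from acs2C by -1.14 ± 0.23 (limma adjusted p = 0.0019). The calls of acs6E against acs9B, acs5D against either of these, acs1A against acs2C, and acs2B and acs6E against acs2C passed under every alternative run.

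Comparisons of IAA29 that involved acs4A were less stable. The calls of acs1A against acs4A (-0.72) and of acs2B against acs4A (-0.83) were lost without acs4A replicate 1 (-0.30 and -0.42, limma adjusted p = 0.16 and 0.075). The first was also lost without acs1A replicate 1, 2 or 3 (0.076, 0.062 and 0.17) and the second without acs2B replicate 3 (0.060). The first was lost as well with arrays shifted to 1 median (0.052) and with trend and robust eBayes (0.063). That of acs4A against acs9B (-0.70) was lost without acs4A replicate 2 or 3 (0.21 and 0.26) or acs9B replicate 1, 2 or 3 (0.099, 0.093 and 0.077) but was -1.11 without acs4A replicate 1 (limma adjusted p = 2.9e-06). That of acs4A against acs6E (1.08) was 0.66 without that replicate and still passed (limma adjusted p = 0.0014), but was lost on the 6 arrays alone (0.092) and with the bioC term (0.091). The other 3 calls with acs4A were lost on the 6 arrays alone as well (0.39 against acs1A, 0.26 against acs2B and 0.30 against acs9B), and that against acs9B also with the bioC term (0.66) and with trend and robust eBayes (0.060). That of acs2C against acs5C (0.83) was lost without acs2C replicate 1 (0.061) or acs5C replicate 3 (0.070). Pairs that passed only without an array were acs2C against acs4A without acs4A replicate 1 (0.67, limma adjusted p = 0.00089), and acs4A against acs5C without acs4A replicate 2 or 3 (0.044 and 0.039). Pairs that passed only on the 6 arrays alone were acs5D against acs1A (0.026), acs2B (0.0039) and acs2C (0.014), and acs6E against acs1A (0.031) and acs5C (0.0093). In the order of means, acs9B, acs2C, acs4A, Col, acs5D, acs5C, acs1A, acs2B and acs6E, no pair of neighbours passed. The difference of acs9B minus acs2C was 0.44 ± 0.21, with arrays that did not overlap (limma adjusted p = 0.35).

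**Figure D2:**
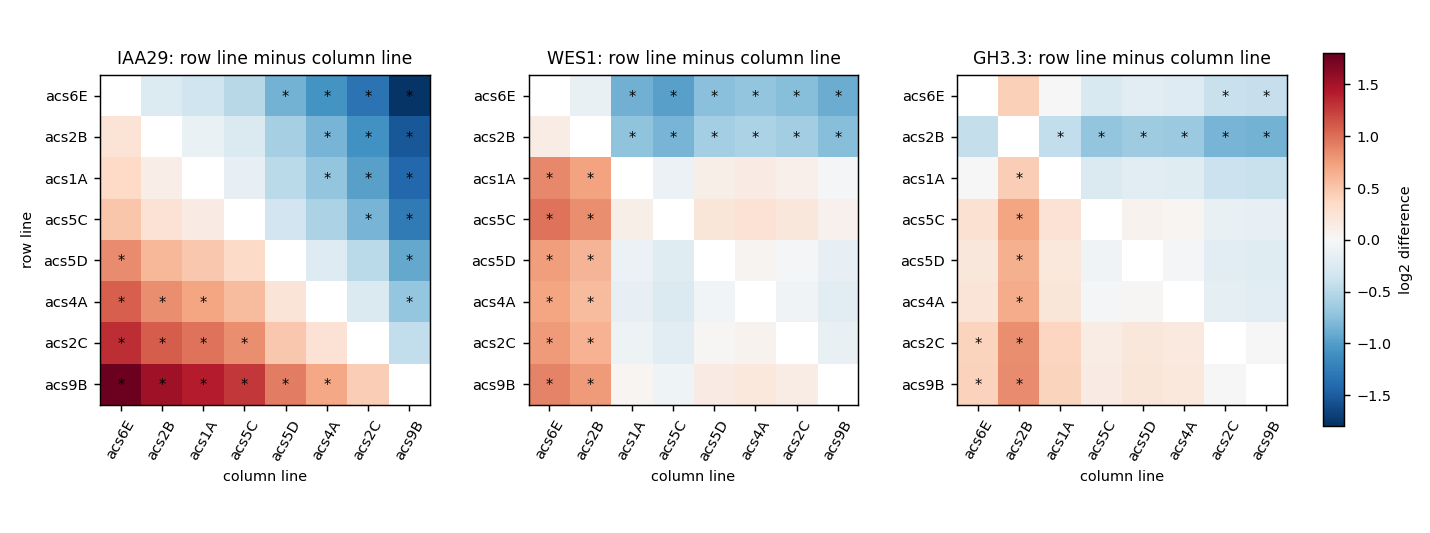
Log2 difference of the row line minus the column line (colour scale) for IAA29, WES1 and GH3.3 between all pairs of the 8 single lines, ordered by the mean IAA29 level. Each pair is drawn in both directions, and asterisks mark limma adjusted p below 0.05: 14 pairs for IAA29 spread along the order, 12 for WES1 and 8 for GH3.3, of which all WES1 pairs and all GH3.3 pairs involve acs2B or acs6E.

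GH3.1, a further member of the GH3 family, and LBD29, a transcription factor that acts downstream of ARF7 and ARF19 in lateral root formation, were dim. Both means lay near the 22nd percentile of the single set and the 21st of the higher order set. Arrays of the single set were at 4.22 to 4.75 for GH3.1 and at 4.22 to 4.62 for LBD29. RMA gives a value to background signal too, so levels this low do not show that the transcripts were present. Differences from Col ran from -0.10 (acs4A) to 0.20 (acs9B) for GH3.1 and from -0.16 (acs5C) to 0.10 (acs2B) for LBD29. By limma 0 of 8 passed for either gene (1 for each at an unadjusted p under 0.05, GH3.1 in acs9B and LBD29 in acs5C), though LBD29 in acs5C passed without Col replicate 3 (limma adjusted p = 0.019), an array at 4.27 against 4.62 and 4.49 on the other Col arrays.

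GH3.1 was higher in acs9B, at 4.57, 4.75 and 4.64, than in 3 lines. The differences were -0.30 for acs4A, -0.29 for acs5C and -0.27 for acs6E minus acs9B (limma adjusted p = 0.026, 0.017 and 0.015). All of these calls were lost without acs9B replicate 2 (0.099, 0.077 and 0.079) and after a second quantile normalization (0.10, 0.15 and 0.093). The acs4A call was also lost without acs9B replicate 3 (0.058) or acs4A replicate 2 or 3 (0.14 and 0.12), the acs5C call without acs5C replicate 2 (0.11), and both with the bioC term (0.21 and 0.060), and the acs6E call without acs6E replicate 1 (0.086). For LBD29 limma called 0 of 28 pairs (6 at an unadjusted p under 0.05), and the lowest adjusted p, 0.052, was for acs2B against acs5C (0.26 ± 0.08). On the 6 arrays alone that pair (0.045) and acs5C against acs6E (0.039) passed.

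An F-test over the 8 lines without Col passed for IAA29, WES1, GH3.3 and GH3.1 (limma adjusted p = 4e-06, 2.6e-05, 0.00064 and 0.044) and not for LBD29 (0.12), where 37.5% of all probe sets passed.

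**Figure D3:**
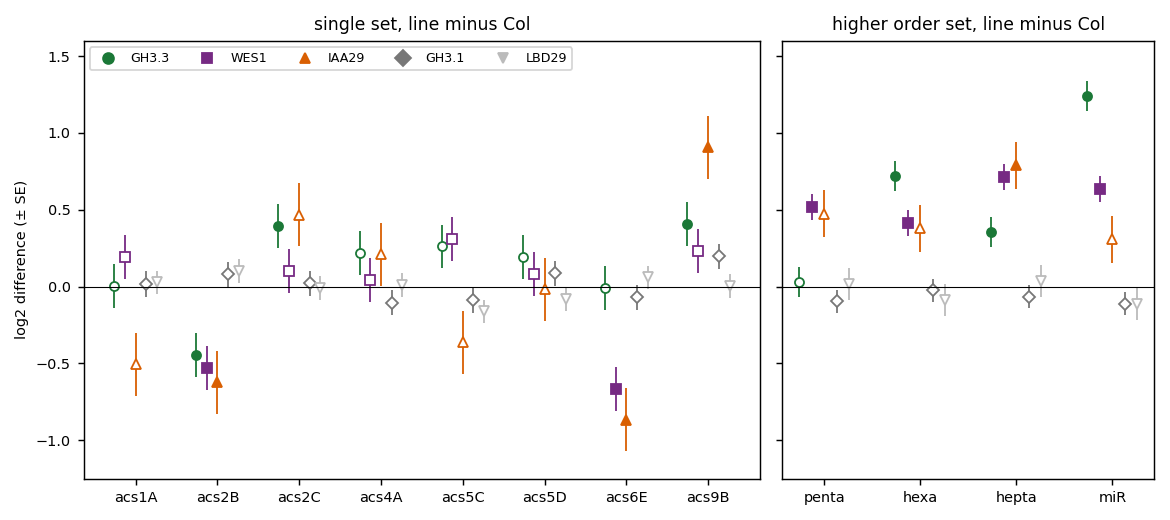
Log2 difference of each line minus the Col arrays of its own set (vertical axis, bars are the SE) for GH3.3, WES1, IAA29, GH3.1 and LBD29 in the single set (left) and the higher order set (right). Filled symbols mark limma adjusted p below 0.05; WES1 lies above 0 in all 4 higher order lines (0.41 to 0.72) and GH3.3 reaches 1.24 in miR, whereas in the single set WES1 is filled only in acs2B and acs6E, below 0.

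Among the higher order mutants, limma called 3.2% of all probe sets against Col in penta, 8.05% in hexa, 12% in hepta and 20.9% in miR. Called higher were 2.08%, 4.44%, 6.96% and 12.3% in the same order. Of the 5 genes 1 was called in penta, 2 in hexa, 3 in hepta and 2 in miR, all higher. Between these lines limma called 7.31% for hexa and penta, 3.58% for hepta and penta, 16.2% for miR and penta, 3.95% for hepta and hexa, 7.83% for miR and hexa and 9.59% for miR and hepta.

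WES1 was higher than Col in all 4 higher order lines. Its level was 8.49, 8.41 and 8.41 in penta, 8.33, 8.25 and 8.41 in hexa, 8.77, 8.54 and 8.60 in hepta and 8.59, 8.68 and 8.39 in miR, against 7.94, 8.00 and 7.82 in Col. All 12 line arrays lay above all Col arrays. The log2 difference was 0.52 ± 0.08 in penta, 0.41 ± 0.08 in hexa, 0.72 ± 0.08 in hepta and 0.64 ± 0.08 in miR (limma adjusted p = 0.0021, 0.0045, 1.6e-05 and 3.6e-05). These calls passed under every alternative run. Between the lines WES1 gave 0 calls among 6 pairs by limma (3 at an unadjusted p under 0.05), with hepta 0.30 ± 0.08 above hexa (limma adjusted p = 0.054). The miR line passed against hexa only without miR replicate 3 (0.31, limma adjusted p = 0.036). In this set thr overlapped between each line and Col, at 6.97 to 7.42 in the lines against 6.95 to 7.16 in Col. The lowest level of the control cre was 11.80 in penta, 11.77 in hexa and 11.81 in hepta, at or within the range of 11.63 to 11.81 in Col, but all miR arrays, at 11.88 to 12.02, lay above Col. The 4 comparisons with Col share the same 3 Col arrays. The hepta arrays did not overlap Col in the summed shoot and root markers, as given for IAA29, and their part was not tested.

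GH3.3 separated the higher order lines from each other. Its level was 6.82, 6.43 and 6.51 in penta, 7.12, 7.39 and 7.31 in hexa, 6.85, 6.98 and 6.91 in hepta and 7.93, 7.79 and 7.68 in miR, against 6.55, 6.55 and 6.57 in Col. The arrays of miR, hexa and hepta formed bands that did not overlap each other or Col, while penta arrays lay on both sides of Col. The difference from Col was 1.24 ± 0.10, 2.36-fold, in miR (limma adjusted p = 7.3e-08), 0.72 ± 0.10 in hexa (0.00010), 0.35 ± 0.10 in hepta (0.022) and 0.03 ± 0.10 in penta (0.93, 95% interval -0.17 to 0.24). The miR arrays stood apart from Col in the control cre as well, and the hepta arrays in the marker sums, as given for WES1. The part of either was not tested. The hepta call was lost without hepta replicate 2 or 3 (0.083 and 0.061) or Col replicate 1, 2 or 3 (0.069, 0.056 and 0.055).

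Between higher order lines GH3.3 gave 5 calls among 6 pairs. The miR line was above penta by 1.21, above hepta by 0.89 and above hexa by 0.52 (SE 0.10 each, limma adjusted p = 1.2e-07, 1.1e-05 and 0.0026), and hexa was above penta by 0.69 (0.00021). The hepta line differed from hexa by -0.36 (limma adjusted p = 0.043), a call lost without hexa replicate 2 or 3 (0.16 and 0.13) or hepta replicate 1, 2 or 3 (0.14, 0.077 and 0.11). The hepta line was 0.32 above penta (0.085), which passed without penta replicate 1 (0.012). The order miR, hexa, hepta, penta and Col was therefore separated between miR and hexa and between hexa and hepta, with the limits given for the second, and not further down.

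IAA29 was highest in hepta, at 6.0, 6.06 and 5.62 against 5.04, 5.38 and 4.89 in Col (0.79 ± 0.15, 1.73-fold, limma adjusted p = 0.0018, passed under every alternative run). All hepta arrays lay above all Col arrays. The hepta arrays were also set apart from Col in the summed level of the shoot markers (14.52 to 14.55 in hepta and 14.58 to 14.62 in Col) and of the root markers (13.14 to 13.19 in hepta and 12.92 to 13.12 in Col), whose part was not tested. No marker was itself called in hepta. The other lines were also above Col on average, by 0.48 ± 0.15 in penta, 0.38 ± 0.15 in hexa and 0.31 ± 0.15 in miR, but did not pass (limma adjusted p = 0.11, 0.15 and 0.17), and their arrays overlapped those of Col. The penta difference passed without Col replicate 2 (0.61, limma adjusted p = 0.037). Between lines IAA29 gave 0 calls by limma (2 at an unadjusted p under 0.05), and miR differed from hepta by -0.48 ± 0.15 (limma adjusted p = 0.054), a difference that passed without hepta replicate 3 (0.022).

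**Figure D4:**
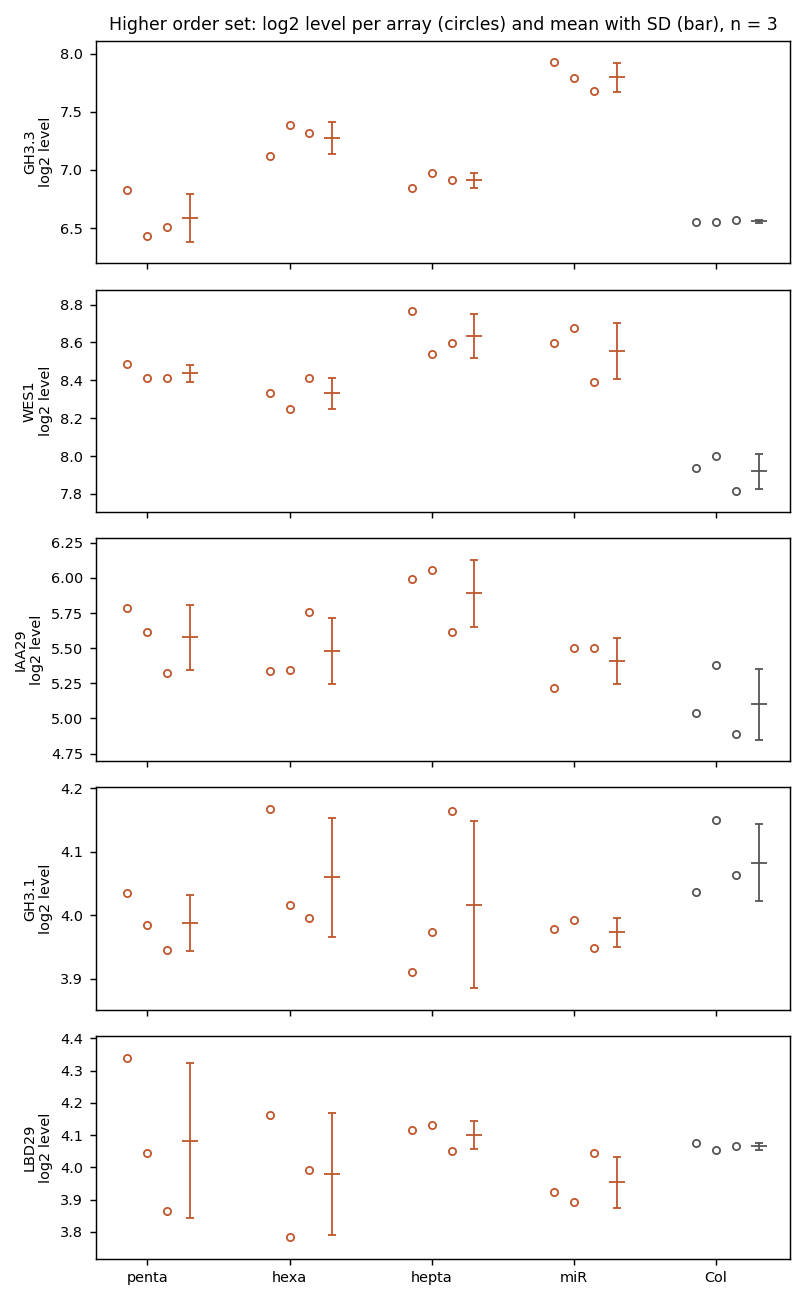
Log2 expression level of GH3.3, WES1, IAA29, GH3.1 and LBD29 (1 panel each, vertical axis) in penta, hexa, hepta, miR and Col of the higher order set (horizontal axis). Circles are the 3 arrays of a group and the bar beside them is the mean with the SD; all WES1 line arrays (8.25 to 8.77) lie above Col, and the GH3.3 arrays of miR (7.68 to 7.93), hexa (7.12 to 7.39) and hepta (6.85 to 6.98) do not overlap.

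GH3.1 and LBD29 did not pass against Col in any higher order line (0 of 4 each by limma, and 0 at an unadjusted p under 0.05). GH3.1 differed by -0.11 to -0.02 and LBD29 by -0.11 to 0.03. Their arrays spanned 3.91 to 4.17 and 3.78 to 4.34, and the 95% intervals for miR were -0.27 to 0.05 and -0.33 to 0.11. The miR arrays lay below all Col arrays for both genes, and between higher order lines limma called 0 of 6 pairs for each, also at an unadjusted p under 0.05. An F-test over the 4 lines without Col passed for GH3.3 (limma adjusted p = 5.9e-07), with 18.6% of all probe sets passing, and not for WES1 (0.059), IAA29 (0.10), LBD29 (0.61) and GH3.1 (0.79).

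The sets thus differed in the sign of the WES1 calls, below Col in acs2B and acs6E and above Col in penta, hexa, hepta and miR. This difference between the sets was not tested, because the sets have separate Col arrays and array medians that do not overlap. IAA29 was called both above (acs9B) and below (acs2B and acs6E) Col in the single set and only above in the higher order set, in hepta.

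Across arrays of the single set, the levels of WES1, GH3.3 and IAA29 were positively correlated, though the lines did not rank alike. The acs5C mean was the highest for WES1 and ranked 6 of 9 groups for IAA29. The acs6E mean was the lowest for WES1 and IAA29 and near Col for GH3.3. After the set mean was subtracted, Pearson's r was 0.71 between GH3.3 and WES1, 0.62 between GH3.3 and IAA29 and 0.61 between WES1 and IAA29 over the 27 arrays (Spearman's rho 0.73, 0.65 and 0.49). Without the 2 arrays farthest from the median of the gene named first, r was 0.66, 0.59 and 0.55. In the 15 arrays of the higher order set r was 0.46, 0.06 and 0.73 (rho 0.37, 0.07 and 0.68), and without 2 arrays 0.30, 0.26 and 0.47. Arrays of a group share a genotype and are not independent points, so these are descriptions without a test.

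WES1 had the closest likeness to other genes. Over all 42 arrays, each set at its own mean, AT3G49790 (r = 0.92), AT1G56220 (0.92), AT4G27450 (0.91), AT5G18130 (0.91) and AT3G10020 (0.90) had the highest r with WES1, with at least 0.90 within each set for each of them. For IAA29 they were AT4G02370 (0.89), AT1G29670 (0.86), AT1G19310 (0.86), AILP1 (0.85) and AT2G15960 (0.85), with 0.57 to 0.82 in the higher order set. For GH3.3 they were AT3G19910 (0.85), AT5G12930 (0.82), AT3G23550 (0.81), the beta-glucosidase gene BGLU45 (0.80) and AT3G45730 (0.79), with 0.62 to 0.75 in the single and 0.86 to 0.93 in the higher order set. No other of the 5 genes was among them. For the dim genes the highest r was lower, 0.64 for GH3.1 (AT4G03850) and 0.66 for LBD29 (AT4G17590). The highest r among all named genes is large by selection and has no test.

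Of 124 genes in lists of auxin and shade genes, 18 had a named probe set, 5 of them the genes above. Of the other 13, GH3.9, GH3.17, IAA18, IAA30 and HAT2 were called in at least 1 line, and none was called in the same direction in at least 4 single lines or at least 2 higher order lines. The share of all probe sets called in at least 1 line was not computed. It is at least the 28.8% called in acs6E alone, so this count is not read as a result about the lists. Among the GH3 enzymes, GH3.17 was higher in penta (0.42 ± 0.08, limma adjusted p = 0.0054) and in acs5C (0.26 ± 0.07, 0.018), and GH3.9 was lower in acs9B (-0.40 ± 0.12, 0.012), the line in which GH3.3 was higher. GH3.9 was dim, with means of 4.62 in acs9B and 5.02 in Col. Among the Aux/IAA repressors, IAA18 was higher in hepta (0.53 ± 0.07, 5e-05), as IAA29 was, and lower in acs4A (-0.43 ± 0.10, 0.0032), and IAA30 was lower in acs6E (-0.19 ± 0.07, 0.038). IAA20, IAA31, IAA33 and IAA34 differed from Col by -0.23 to 0.09 and were called in no line. They were about as dim as GH3.1 and LBD29, with Col means of 3.82 (IAA31) to 4.69 (IAA20) in the single set. The absence of calls therefore does not show that these transcripts were present and unchanged.

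By list, the 5 measured GH3 genes of 11 listed had 2 lower calls in acs2B (12.5% of all probe sets called lower) and 1 lower in acs6E (15.5%). They had 1 higher call in acs2C (12.1% of all called higher) and in acs5C (8.66%), and in acs9B 1 higher (10.9%) and 1 lower (14.7%). Their median difference was -0.17 in acs2B, -0.07 in acs6E and 0.20 in acs9B, beside -0.03 to 0.00 for all probe sets over the single lines. The 7 measured Aux/IAA genes of 29 listed had 2 lower calls in acs6E (15.5%), 1 lower in acs2B (12.5%) and in acs4A (10.7%), and 1 higher in acs9B (10.9%), with medians of -0.14, -0.03, -0.11 and -0.03 in the order given. The GH3 genes had 2 calls in each higher order line, all higher (2.08% of all probe sets called higher in penta, 4.44% in hexa, 6.96% in hepta and 12.3% in miR), with medians of 0.03 in penta, -0.02 in hexa, 0.13 in hepta and 0.19 in miR, beside 0.00 to 0.02 for all probe sets. All of these GH3 calls were those of GH3.3 and WES1 given above, except GH3.17 in penta. In the single set they were too, except GH3.17 in acs5C and GH3.9 in acs9B. The list counts thus repeat these calls and are no separate evidence. The Aux/IAA genes had 2 calls in hepta, both higher (median 0.09), and 0 in penta, hexa and miR. In both sets the Aux/IAA calls were of IAA29, except IAA18 in hepta and acs4A and IAA30 in acs6E. LBD16, a close partner of LBD29 in lateral root formation, and the auxin synthesis genes YUC2, YUC4 and YUC6 differed from Col by -0.24 to 0.22 and were not called in any of the 12 lines. LBD16 and YUC4 were dim too, with means of 4.91 and 4.73 in Col of the single set. HAT2, a homeobox gene known as induced by auxin and shade, was lower in acs1A (-0.31), acs2B (-0.24) and acs2C (-0.23; limma adjusted p = 0.0058, 0.029 and 0.033) and was not called in any higher order line.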

How the data were processed

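Per the submitters' processing notes, the deposited values are log2 levels from RMA, a method of background correction, quantile normalization and probe summary. The notes name neither its version nor which arrays were run together. The 64 control probe sets were left out and 22746 were fitted without a filter. Genes were named from the platform annotation and, for names only, the RefSeq table of TAIR10.1; probe sequences were not used here, so cross-hybridization between GH3 genes was not tested.

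Each set was modelled in R 4.3.3 by limma 3.58.1 (lmFit, eBayes), with a spread shared by its groups. P-values are two-sided and Benjamini-Hochberg adjusted within a comparison, and a p in parentheses without a name is such an adjusted p. Errors of differences are SE, intervals are 95%, and n = 3 arrays per group limits the precision. Alternatives were a second quantile normalization, arrays shifted to 1 median, the dimmest 25% of probe sets left out, trend and robust eBayes, the 2 groups alone (6 arrays), the replicate number as a block, each array left out and, for single pairs, the bioC level as a term in a fit without the Col arrays. Likeness was Pearson's r over arrays at the set's mean, taking the 5 highest named genes. A list gene was to be named if called one way in at least 4 single or 2 higher order lines; none met this, and those named were chosen after their values were seen. DAO1 was dropped because its name did not match. Members and lists were chosen with earlier results of these data known.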

Additional observations from a re-analysis of the deposited data

Results flagged for a closer look

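For 4 differences between single lines, the lines were called on opposite sides of Col and also differed from each other in the limma fit. IAA29 differed by -1.77 ± 0.21 (SE) between acs6E, called below Col, and acs9B, called above it (limma adjusted p = 1.1e-06), and all 3 acs6E arrays lay below all 3 acs9B arrays. IAA29 differed by -1.53 ± 0.21 between acs2B and acs9B (limma adjusted p = 1.1e-05). GH3.3 differed by -0.85 ± 0.14 between acs2B and acs9B and by -0.84 ± 0.14 between acs2B and acs2C (limma adjusted p = 0.00011 and 0.00023), 2 lines named for the same gene. In each, all 3 acs2B arrays were the lower ones. WES1, called below Col in acs2B and acs6E, also differed between acs2B and acs2C (-0.63 ± 0.14, limma adjusted p = 0.0026), but acs2C was not called against Col. The GH3.3 calls against Col in acs2B, acs9B and acs2C, and the IAA29 call in acs2B, were lost without single arrays, as given above. Col also stood apart from every single line in the controls thr and cre. In the control bioC, all acs9B arrays were high, while of the acs2B arrays only replicate 2 was.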

How the results depend on the processing

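Of 58 called member differences, 33 passed under every alternative run, 7 of 8 against Col and 4 of 5 pairs in the higher order set, and 3 of 8 against Col and 19 of 37 pairs in the single set. None of the 58 changed sign, while 58 of the 172 uncalled ones did under some alternative, none of them above 0.23 in size. The replicate number did not pair the arrays (0 of 36 pairs of groups in the single set and 0 of 10 in the higher order set had all 3 correlations of same-numbered arrays above 0.1), and with the replicate block the members had 58 calls, as without it, with 1 lost (GH3.3 in hepta against hexa, limma adjusted p = 0.056) and 1 gained (GH3.3 in acs1A against acs9B, 0.024). Counts moved as follows. GH3.1 had 0 pairs of single lines after a second quantile normalization and 1 with the bioC level as a term and Col left out, against 3, and 1 single line against Col with arrays shifted to 1 median, against 0. LBD29 had 3 pairs of single lines with shifted arrays and 2 on the 2 groups alone, against 0. GH3.3 had 1 single line against Col on the 2 groups alone, against 3, and 5 pairs of single lines with the bioC term and Col left out, against 8. IAA29 had 5 single lines against Col on the 2 groups alone, against 3, and 1 pair of higher order lines without the dimmest 25%, with trend and robust eBayes and on the 2 groups alone, against 0. WES1 had 1 such pair without the dimmest 25% and with trend and robust eBayes, against 0. With each array left out, the counts against Col in single lines were 0 to 3 for GH3.3, 0 to 1 for LBD29 and 1 to 2 for WES1, the pairs of single lines 0 to 3 for GH3.1, IAA29 against Col in higher order lines 1 to 2, and the pairs of higher order lines 0 to 1 for IAA29 and WES1. Pairs of single lines were 10 to 14 for WES1, 6 to 9 for GH3.3 and 13 to 14 for IAA29. Single lines against Col were 2 to 3 for IAA29. In the higher order set GH3.3 had 2 to 3 lines against Col and 4 to 6 pairs. The fit with the bioC term changed 2 choices at once, since Col was left out of it. By construction its term rests on acs2B replicate 2, the only array at another level than its group. In it 11 called pairs no longer passed, the 9 of GH3.3, WES1 and IAA29 being IAA29 in acs1A, acs5C and acs4A against acs9B (limma adjusted p = 0.14, 0.14 and 0.66) and in acs4A against acs6E (0.091), GH3.3 in acs1A against acs2B (0.090), acs2B against acs5D (0.17) and acs2C against acs6E (0.38), and WES1 in acs2B against acs5D (0.34) and acs4A against acs6E (0.063). The cause of these moves was not tested. Signal near background limits GH3.1 and LBD29, and the dim list genes named above.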
